A study of Homo sapiens with 6 samples.

Results

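Peptides from 4 proteins of the stress-activated kinase cascade, ASK1, SEK1, ATF-2 and HSP27, were followed in macrophage-like THP-1 cells. They are all the peptides that the arrays list under these names: 8 of the 298 human peptides (300 printed), of which 7 are listed with a serine and 1 with a threonine. ASK1 (gene MAP3K5, UniProt Q99683) has 3 of them, listed at S83, S966 and S1033. SEK1 (MAP2K4, P45985) has 2, at S80 and S257/0, ATF-2 (ATF2, P15336) has 2, at S44 and T51/3/5, and HSP27 (HSPB1, P04792) has 1, at S78/82/3; the positions are printed as the arrays list them. The groups were cells given recombinant human IL-32γ (IL-32 below), cells given IL-17A/F (IL-17 below) and unstimulated cells. Each cytokine was given at 20 ng/ml for 15 min. Each group had 2 arrays, and the design text describes 2 independent experiments. The replicate numbers in the sample titles were taken as experiments 1 and 2, since the labels do not name an experiment for each array. All groups came from THP-1, a human monocytic leukaemia line. The cells were made adherent with the phorbol ester PMA, itself an activator of protein kinase C, and then rested. Cell lysate acted on peptides printed in 3 spots per array, and a fluorescent dye that binds phosphate on proteins gave the signal, so that a value is phosphorylation of a printed peptide and not of the protein in the cell.

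The stress kinase cascade carries signals from oxidants, cytokines and osmotic or heat stress to the MAP kinases JNK and p38. ASK1 is a MAP kinase kinase kinase at its top, held inactive by thioredoxin and by 14-3-3 proteins. SEK1, also called MKK4, is a MAP kinase kinase that activates JNK and can act on p38. ATF-2 is a transcription factor switched on by JNK and p38, and HSP27 is a small heat shock protein phosphorylated by MK2, a kinase activated by p38. In macrophages p38 and MK2 are known for their control of inflammatory cytokine mRNAs.

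Signal over local background limits what can be read. The median ratio of foreground to background ran from 1.16 to 1.34 over the 6 arrays, and 26.1% to 35.4% of the 900 spots of an array were dimmer than their own background. Local background was uneven: on the IL-17 array of experiment 1 its median was 7199 intensity units at the first, 14371.5 at the second and 30552.5 at the third spot of a peptide. The number of arrays limits the precision further, since the smallest p of an exact permutation test is 0.333 at 2 arrays per group.

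Of the 8 peptides, 3 had a mean signal above background on at least 1 array of each group, and the others gave little or no reading. ASK1 S83 and ASK1 S966 were above background in 18 of 18 spots over the 6 arrays and SEK1 S80 in 11 of 18. HSP27 S78/82/3 was above it in 8 of 18 spots, mostly in experiment 2. ASK1 S1033, SEK1 S257/0, ATF-2 S44 and ATF-2 T51/3/5 were below it in all 18. Peptides with no spot above background thus made up 50% of the 8, beside 26.1% of the 188 serine and threonine peptides of the array and 17.8% of all 298. This is a description of printed peptides: no array without lysate was used here.

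**Figure D1:**
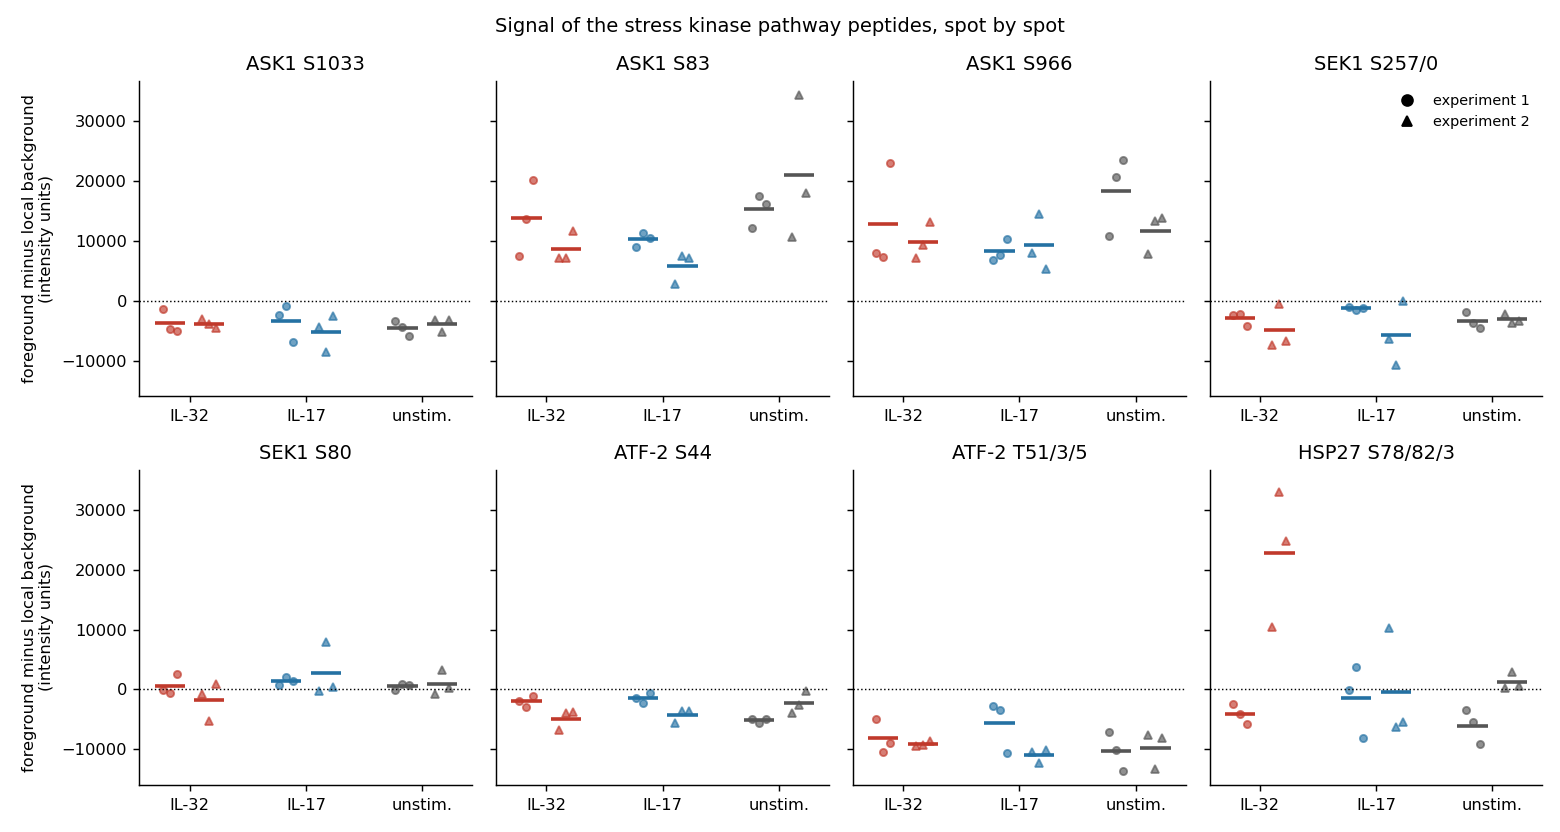
Foreground minus local background (intensity units) of each of the 3 spots of the 8 peptides, by group; circles are experiment 1, triangles experiment 2, and bars the mean of an array. The dotted line at 0 marks equality with the background: ASK1 S83 and S966 lie above it on every array, 4 peptides lie below it on every array, and the mean of HSP27 is far above it only on the IL-32 array of experiment 2.

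ASK1 S83 is a site at which the kinase Akt is known to phosphorylate ASK1 and lower its activity. Its foreground minus background was 13749.7 and 8627 intensity units on the IL-32 arrays of experiments 1 and 2, 10249 and 5789 on the IL-17 arrays, and 15265 and 21006 on the unstimulated arrays. On this scale both unstimulated arrays were the highest of the 6. The scale holds the brightness of the whole array, and after normalisation the groups overlapped: the log2 level was 12.24 and 11.78 after IL-32, 12.04 and 11.77 after IL-17, and 12.01 and 12.46 in unstimulated cells. In experiment 1 the 3 levels lay close together, with IL-32 highest, while in experiment 2 the unstimulated array stood above both cytokine arrays. In the authors' processed table the peptide was likewise at 0.730 after IL-32 and 0.712 after IL-17 in experiment 2, against 1.64 in unstimulated cells. Those values were 1.37 after IL-32 and 1.10 after IL-17 in experiment 1, against 1.07 in unstimulated cells.

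The fitted log2 difference of ASK1 S83 was -0.33 ± 0.21 (SE, n = 2 arrays per group) for IL-17 over unstimulated cells, with 0.030 in experiment 1 and -0.69 in experiment 2 (limma adjusted p = 0.997). For IL-32 it was -0.23 ± 0.21, with 0.22 and -0.68 in the 2 experiments (limma adjusted p = 0.996). The 95% intervals ran from -0.86 to 0.20 and from -0.76 to 0.30. Both differences use the same unstimulated arrays, and the one of experiment 2 was the highest of the 6. Without it the IL-17 difference was -0.11 and the IL-32 difference was -0.0061; without the unstimulated array of experiment 1 they were -0.55 and -0.45. With foreground divided by local background they were -0.15 and -0.0098, with plain subtraction -0.50 and -0.35, without background subtraction -0.37 and -0.41, and in the authors' processed table -0.58 and -0.40. Between the cytokines the difference, IL-32 minus IL-17, was 0.10 ± 0.21, with a 95% interval from -0.43 to 0.63.

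ASK1 S966 lies in a sequence that docks 14-3-3 proteins, which hold the kinase inactive. Its foreground minus background was 12735 and 9823 intensity units after IL-32, 8241 and 9242 after IL-17, and 18337 and 11659.7 in unstimulated cells. The normalised log2 level was 12.23 and 11.85 after IL-32, 11.85 and 12.03 after IL-17, and 12.23 and 11.86 in unstimulated cells. The IL-32 and unstimulated arrays of an experiment were nearly equal, and the IL-17 array was below both in experiment 1 and above both in experiment 2. The log2 difference from unstimulated cells was -0.0048 ± 0.18 for IL-32 and -0.10 ± 0.18 for IL-17, the second made of -0.38 in experiment 1 and 0.17 in experiment 2. Between the cytokines it was 0.098 ± 0.18 (0.38 and -0.18). With the median of the 3 spots in place of their mean, the difference from unstimulated cells was -0.32 for IL-32 and -0.28 for IL-17. The third site, ASK1 S1033, had 0.764 to 0.818 times its local background on the 6 arrays and has no fold.

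SEK1 was read through S80 alone. The peptide at S257/0 covers the activation loop that kinases such as ASK1 phosphorylate. It had 0.763 to 0.917 times its background on the 6 arrays, and so gave no reading. SEK1 S80 was barely above background: its foreground minus background was 590.7 and -1724 intensity units after IL-32, 1400.3 and 2690 after IL-17, and 508.3 and 924 in unstimulated cells. Both IL-17 arrays were thus above the other 4 on this scale. After normalisation the log2 level was 11.35 and 11.24 after IL-32, 11.34 and 11.56 after IL-17, and 11.32 and 11.35 in unstimulated cells, and the groups overlapped. The log2 difference was 0.12 ± 0.099 for IL-17 over unstimulated cells, with 0.020 and 0.22 in the 2 experiments, and -0.034 ± 0.099 for IL-32. Between the cytokines, IL-32 minus IL-17, it was -0.15 ± 0.099, with 0.015 in experiment 1 and -0.32 in experiment 2. Without the IL-17 array of experiment 2 these were 0.0057 for IL-17 and -0.039 between the cytokines. The limma adjusted p was 0.996 for IL-32 and 0.997 for the other 2 comparisons. The size for IL-17 depended on the background correction and on how spots were averaged. The median of the 3 spots gave 0.061, an offset of 10 gave 0.12, and foreground divided by local background gave 0.16. Leaving the background in gave 0.59. Plain subtraction, where spots below background are set to a floor of 1, gave 2.18. On the IL-17 array of experiment 2 the spots had -277, 7881 and 466 intensity units over background, so its mean rested largely on 1 spot. In the authors' processed table the size was 2.13, with the peptide at 0.150 and 0.331 after IL-17 and at 0.0356 and 0.0722 in unstimulated cells. After IL-32 that table has it at 0.0588 and, in experiment 2, at the floor of 0.01, so no size is given from it for IL-32.

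ATF-2 gave no reading on these arrays. The peptide at T51/3/5 had 0.558 to 0.709 times its local background, with a foreground minus background between -10981 and -5612 intensity units, and the one at S44 had 0.766 to 0.9275 times it, between -5183 and -1434. All 18 spots of each were dimmer than their background, and the authors' table lists both peptides at its floor of 0.01 on every array. Whether ATF-2 peptides were phosphorylated differently between groups was not detectable at this signal.

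HSP27 S78/82/3 carries serines that MK2 phosphorylates downstream of p38, and it was bright on 1 array. In experiment 2 its 3 spots had 10418, 33003 and 24783 intensity units over background after IL-32. There they had 10262, -6266 and -5432 after IL-17, and 289, 2949 and 546 in unstimulated cells. In experiment 1 the spots had -2444, -4055 and -5804 after IL-32, -149, 3758 and -8093 after IL-17, and -3499, -5469 and -9210 in unstimulated cells. All 3 spots of the IL-32 array in experiment 2 were therefore well above background, and none of those of the IL-32 array in experiment 1. The normalised log2 level was 11.06 and 12.87 after IL-32, 11.19 and 11.45 after IL-17, and 11.06 and 11.36 in unstimulated cells. The array of experiment 2 was the higher one in each group, and the IL-32 group spanned the levels of the other groups.

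The fitted log2 difference of HSP27 between IL-32 and unstimulated cells was 0.75 ± 0.55, with a 95% interval from -0.60 to 2.1 (limma adjusted p = 0.996). It was -0.0076 in experiment 1, where the mean signal was below background on both arrays, and 1.51 in experiment 2. The value of experiment 1 therefore does not measure an absence of change. With the IL-32 array of experiment 2 left out, the fitted difference was -0.16. Without the IL-32 array of experiment 1, which leaves the bright array as the only 1 of the IL-32 group, it was 1.66. Against IL-17, where the mean signal was below background on both arrays, no fold is given, since the IL-32 array of experiment 1 was below background too. The measured log2 means were 11.96 after IL-32 and 11.32 after IL-17 (limma adjusted p = 0.997), and the difference was -0.13 in experiment 1 and 1.42 in experiment 2, with a 95% interval from -0.71 to 2.0. For IL-17 over unstimulated cells there is no fold either. Of all 298 peptides HSP27 had the widest range of normalised levels over the 6 arrays, 1.82 on the log2 scale. In the authors' table it was at 0.01 and 1.92 after IL-32, at 0.01 on both arrays after IL-17, and at 0.01 and 0.0986 in unstimulated cells.

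**Figure D2:**
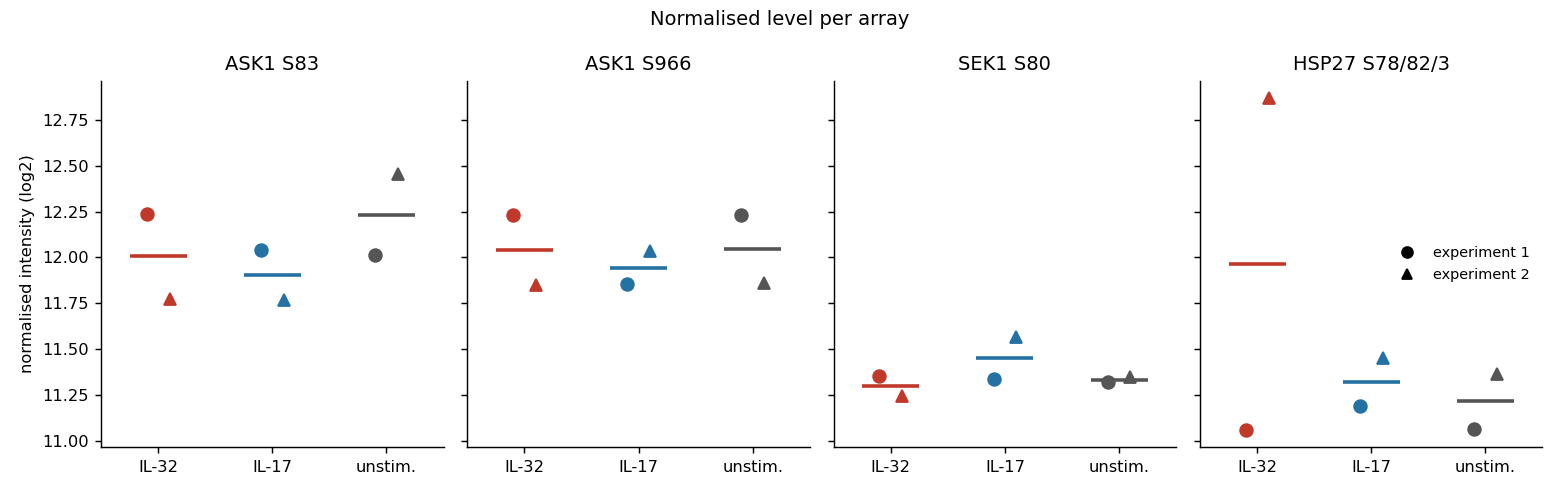
Normalised log2 intensity of the 4 peptides with a mean signal above background on at least 2 arrays, by group; circles are experiment 1, triangles experiment 2, bars the group mean. The groups overlap for each peptide, and the HSP27 level of 12.87 after IL-32 in experiment 2 stands alone.

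The study asked which peptides were phosphorylated differently after each cytokine than in unstimulated cells. None of the 8 peptides passed the adjusted threshold of 0.05 in any comparison, where the share of the 298 peptides that passed was 0% with IL-32, 0% with IL-17 and 0% between the cytokines (limma, smallest adjusted p = 0.996, 0.997 and 0.997). None of the 8 had an unadjusted p under 0.05 in limma's test, against 4, 0 and 4 of the 298. The criteria stated by the study were a change over 1.5-fold with p under 0.06. With limma's p, 0 of the 8 and 0% of all peptides met them in each comparison. The arrays of the groups failed to overlap for 1 of the 8 with IL-32 and 1 with IL-17, SEK1 S257/0 and ATF-2 T51/3/5, both below background, and for 0 between IL-32 and IL-17; over all peptides the shares were 24.5%, 17.1% and 22.1%. Of the 4 peptides that were above background in IL-32 or unstimulated cells, 1 was higher and 3 were lower with IL-32, beside 107 and 115 of the 222 such peptides on the array. With IL-17 the counts were 2 and 2, beside 113 and 110 of 223, and for IL-32 minus IL-17 they were 3 and 1, beside 109 and 115 of 224. In both of these, HSP27 is counted as higher by its normalised level, though it has no fold there.

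Quantile normalisation makes each difference one relative to the rest of its array. Without normalisation between arrays the median peptide lay 0.59 below unstimulated arrays for IL-17 (log2 -0.587). There 98.3% of all peptides and 7 of the 8, all but HSP27, passed as lower. Relative to that median, ASK1 S83 was at -0.46, ASK1 S966 at -0.18 and SEK1 S80 at 0.14. For IL-32 the median was -0.235 and no peptide passed, with ASK1 S83 at -0.19, ASK1 S966 at 0.041, SEK1 S80 at -0.026 and HSP27 at 0.69 relative to it.

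**Figure D3:**
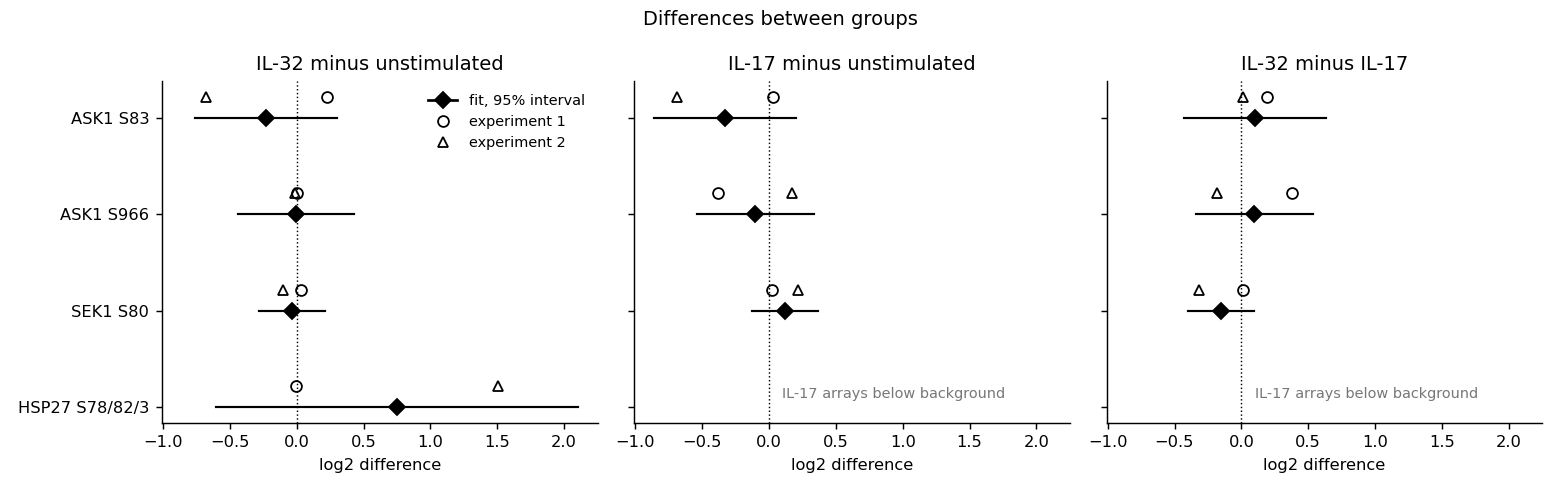
Log2 differences between groups for the same 4 peptides: diamonds and lines are the fit over 2 arrays per group with its 95% interval, open circles experiment 1 and open triangles experiment 2. All intervals include 0; the widest is that of HSP27 for IL-32, from -0.60 to 2.1. HSP27 is not drawn where the IL-17 arrays were below background.

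The rest of the stress pathway was read from 29 further peptides of 18 proteins, from the upstream kinases to the targets of JNK and p38. With IL-32, 10 were higher and 19 lower, beside 145 and 153 of all 298 peptides. The median log2 difference was -0.0098, beside -0.0017 over all 298. With IL-17, 15 were higher and 14 lower, beside 157 and 141, with a median of 0.00060 beside 0.0031. For IL-32 minus IL-17, 11 were higher and 18 lower, beside 147 and 151, with a median of -0.013 beside -0.0021. None of the 29 passed the adjusted threshold, and 9, 9 and 8 of them were below background in both groups compared and have no fold. The direction counts include these. Without them, the higher and lower counts were 8 and 12 with IL-32, 10 and 10 with IL-17, and 8 and 13 between the cytokines. An unadjusted p under 0.05 in limma's test was reached by 1 of the 29 with IL-32, 0 with IL-17 and 1 between the cytokines. Over all 298 peptides these counts were 4, 0 and 4. The peptides below are named after their values were seen. Elk-1 T417, from a transcription factor that MAP kinases phosphorylate, was at -0.39 ± 0.15 with IL-32, with -0.49 and -0.28 in the 2 experiments (limma adjusted p = 0.996). RAC1 S71, from a small GTPase, was at 0.33 ± 0.13 for IL-32 minus IL-17, with 0.20 and 0.47 (limma adjusted p = 0.997).

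The steps next to the members were readable in part, and the arrays list no peptide of MK2. Of the MAP kinase kinase kinases, MEKK1 at T1383 was above background in 18 of 18 spots, with a log2 difference of -0.062 ± 0.10 for IL-32 and -0.015 ± 0.10 for IL-17. TAK1, which cytokine receptors use to switch on JNK and p38, was below background on all arrays at S192 and T184. The same held for the peptide of MLK3, a further MAP kinase kinase kinase, listed without a residue. p38-alpha, the kinase upstream of MK2, was above background in 18 of 18 spots at T180/2, its activation loop; the difference there was -0.043 ± 0.070 for IL-32 and -0.042 ± 0.070 for IL-17. At Y323 the p38-alpha peptide gave -0.088 ± 0.079 and -0.085 ± 0.079. The activation loop peptide of p38 gamma, T183/5, gave -0.00094 ± 0.077 for IL-32 and 0.031 ± 0.077 for IL-17. In experiment 2, where the HSP27 peptide differed by 1.51 on the log2 scale after IL-32, p38-alpha T180/2 was at -0.021 and p38 gamma T183/5 at -0.045. A link between these peptides was not tested.

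JNK peptides gave small values too. JNK2 S129 was at 0.027 ± 0.13 for IL-32 and 0.040 ± 0.13 for IL-17, JNK3 T131 at 0.0013 ± 0.078 and 0.055 ± 0.078, and a JNK1 peptide listed without a residue at -0.15 ± 0.10 and -0.099 ± 0.10. JNK1 S377 was below background on all arrays, and JNK2 T404/7 was above it on 1. Among JNK targets, c-Jun at S73, a site in its transactivation domain, was above background in 18 of 18 spots, with 0.059 ± 0.077 for IL-32 and 0.040 ± 0.077 for IL-17, whereas its S63 peptide had no spot above background. MKP-1, the phosphatase that switches JNK and p38 off, was read at S296, with -0.039 ± 0.093 for IL-32 and -0.22 ± 0.093 for IL-17. The IL-17 difference was -0.10 in experiment 1 and -0.33 in experiment 2, and did not pass the adjusted threshold (limma adjusted p = 0.997). The S323 peptide of MKP-1 was below background, and its S359 peptide was above it on 1 array.

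**Figure D4:**
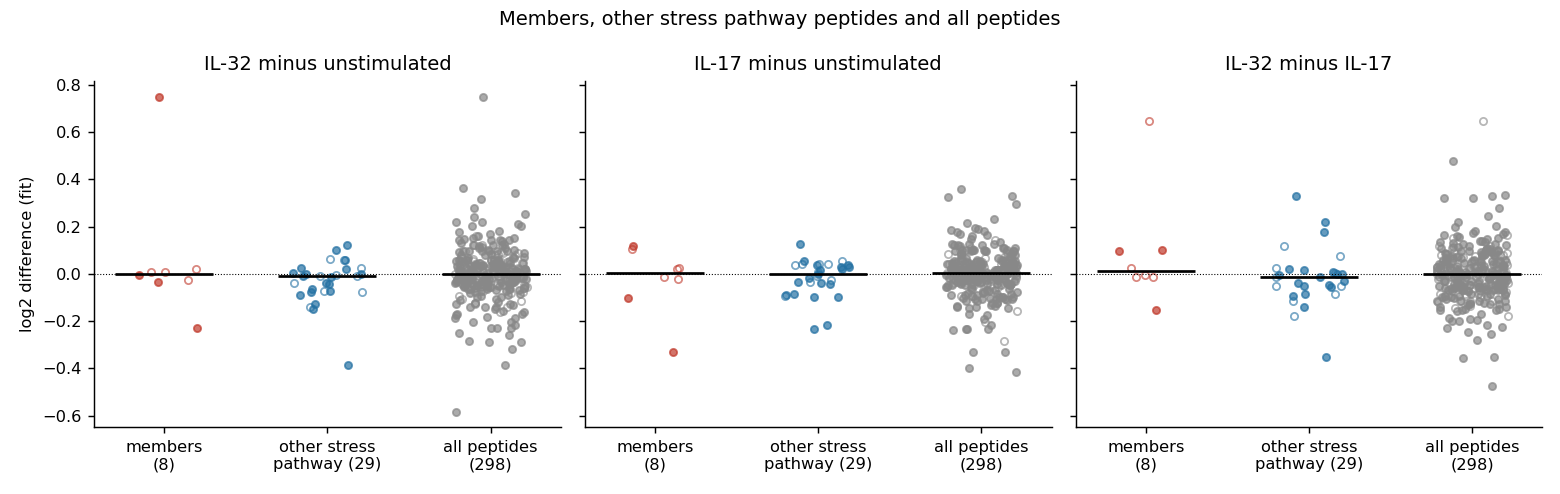
Fitted log2 differences of the 8 peptides, the 29 other stress pathway peptides and all 298 peptides in the 3 comparisons; the bar is the median, and open points have a group below background and no fold. HSP27 with IL-32 and against IL-17 lies above the range of the 29 peptides, and ASK1 S83 with IL-17, at -0.33, lies below their range of -0.231 to 0.128. The medians lie between -0.013 and 0.012.

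Peptides were compared by the pattern of their normalised levels over the 6 arrays. Most like ASK1 S83 were CDK7 T170 (Pearson's r = 0.949), a peptide of NFkB-p100 (0.94) and NFAT4 S163/5 (0.929). The NFkB-p100 peptide had no spot above background, and NFAT4 S163/5 had 4 of 18. Those most like ASK1 S966 were IL-8R B S351/2/3 (r = 0.933, no spot above background), JNK2 S129 (0.914) and CREB S129 (0.87). SEK1 S80 was most like 4E-BP1 T46 (0.978, 2 of 18 spots above background), Cdc42 Y64 (0.962) and an Akt1 peptide listed without a residue (0.902). HSP27 was most like ERK2 Y205 (0.985), gp130 S782 (0.969, 7 of 18 spots above background) and PKR T446 (0.954). These 3 values rest on 1 array: with each array left out in turn the lowest r was 0.693, -0.149 and -0.334. Each r is the highest found among all peptides over the same 6 arrays, which share a quantile normalisation, and are given as a description.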

How the data were processed

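Peptide phosphorylation was read on 6 arrays, 1 per sample, grouped by the titles of the samples. The deposited scanner values are intensities per the file headers: the mean foreground and mean local background of each spot, neither subtracted nor normalised. The authors' processed table was matched to these values: within 3.3e-07 of every value above its floor, it is a ratio, the mean of foreground minus background of a peptide divided by the 80th percentile of the array, with a floor of 0.01. The sources used here name no scanner or image software. Peptide sequences were not used.

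For the comparisons, limma's normexp method (offset 50) removed the background, 2 non-human peptides were left out, log2 values of spots were quantile-normalised, and the mean of 3 spots was taken per peptide. Groups were compared with lmFit and eBayes (limma 3.58.1, R 4.3.3; two-sided; Benjamini-Hochberg adjustment over 298 peptides) in 1 fit of all 6 arrays, without a block. Errors beside log2 differences are moderated standard errors. The pipeline was tested on simulated data with large changes put into bright peptides, so that test does not cover dim peptides or small changes. A peptide is called below background in a group when its mean foreground exceeded the local background on neither array; it then has no fold there.

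The design text describes 2 independent experiments, and the replicate numbers, which the array numbers in the file headers follow, were taken as these. Over 298 peptides, deviations of same-numbered arrays from their group means correlated at 0.022 between IL-32 and unstimulated arrays, at 0.18 between IL-17 and unstimulated arrays and at 0.40 between IL-32 and IL-17 arrays.

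All peptides of the 4 named proteins are reported, with the other stress pathway peptides as counts and the neighbouring kinases, c-Jun and MKP-1 by name. Members and lists were chosen with earlier results of these data known. Gene symbols come from the RefSeq table of GRCh38.p14. The alternatives tried concern background correction, normalisation, averaging of spots, a filter on dim peptides, the arrays in the fit, the replicate block, each array left out and the authors' processed table.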

Additional observations from a re-analysis of the deposited data

How the results depend on the processing

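None of the 10 differences given with a fold passed the adjusted threshold under any alternative, apart from those for IL-17 without normalisation between arrays. ASK1 S83 for IL-17 kept its sign in all 17 alternatives. Signs turned without background subtraction for SEK1 S80 with IL-32 (0.25) and for ASK1 S83 between IL-32 and IL-17 (-0.043), and without normalisation for SEK1 S80 with IL-17 (-0.45) and between the cytokines (0.19). They also turned with the median of the 3 spots for ASK1 S83 (-0.024) and ASK1 S966 (-0.033) between the cytokines, and with median scaling for ASK1 S966 with IL-32 (0.038). With each array left out in turn, the IL-32 difference ran from -0.46 to 0.0017 for ASK1 S83, from -0.19 to 0.18 for ASK1 S966, from -0.088 to 0.020 for SEK1 S80 and from -0.16 to 1.66 for HSP27. The IL-17 difference of ASK1 S966 ran from -0.29 to 0.083, and the differences between the cytokines from -0.13 to 0.33 for ASK1 S83, from -0.092 to 0.29 for ASK1 S966 and from -0.26 to -0.039 for SEK1 S80. The IL-17 difference of SEK1 S80 ran from 0.0057 to 0.23. A group left with 1 array was then assumed to vary like the others.

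Counts over all 298 peptides moved as follows. At the study's criteria they were, for IL-32, 10 without background subtraction, 3 with plain subtraction, 1 with an offset of 10, 3 without normalisation and 3 in the authors' processed table. For IL-17 they were 1, 4, 0, 153 and 1, and between the cytokines 8, 4, 0, 17 and 3 under the same settings. With an array left out they ran from 0 to 3, from 0 to 2 and from 0 to 1. Past the adjusted threshold, without normalisation, were 293 for IL-17 and 4 between the cytokines; with plain subtraction, 1 passed between the cytokines. The members that met the criteria are named here only for fits with no array left out. SEK1 S80 met the criteria for IL-17 without background subtraction, and for IL-17 and between the cytokines with plain subtraction. ASK1 S83 met them for IL-17 and between the cytokines, ASK1 S966 for IL-17, and HSP27 between the cytokines, without normalisation. HSP27 with IL-32 was at 1.66 without the IL-32 array of experiment 1. That fit leaves the IL-32 group with 1 array, so only the size is given. The causes were not tested.

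With the replicate number as a replicate block the differences stay as they are by construction, 0 peptides passed the adjusted threshold in any comparison (limma), and the standard error of HSP27 with IL-32 was 0.38. Unadjusted p was under 0.05 for 8, 4 and 10 of the 298 peptides with the block, and for 4, 0 and 4 without it; the block changed no call. Signal close to background limits SEK1 S80 and HSP27, and 4 of the 8 peptides gave no reading.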
